A study of Homo sapiens with 8 samples.

Results

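The 10 genes described here encode proteins that carry vitamin B12 (cobalamin) into the cell, release it from the lysosome, prepare it and use it. They are LMBRD1, ABCD4, MMACHC, MMADHC, MTR, MTRR, MMAA, MMAB, MUT and CD320, and all 10 were found by symbol among the 23459 rows of the deposited gene counts. LMBRD1 was chosen by its measured counts, as the clearest riser with lenalidomide in the comparison described here, and the other 9 were selected on their place in the same pathway and not on values. The values of LMBRD1 in that comparison are therefore given as a description, without a test. RNA was measured in Hct116 cells, an established human colorectal carcinoma line, grown as a monolayer in DMEM with serum and given 30 μM lenalidomide for 16 h, or the solvent DMSO alone. Lenalidomide is a thalidomide derivative that redirects the CRL4-CRBN ubiquitin ligase to additional substrates. Each treatment had 4 libraries of total RNA, all from this 1 line without genetic change. The methods describe a switch to medium with heavy arginine and lysine at the time of treatment, which the labels do not mention. Some replicates of that experiment were label swaps, and the labels do not say which libraries these would be. The methods call the replicates technical and a legend calls them biological, so p-values measure the spread between these libraries, which may be technical.

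Cobalamin reaches cells bound to the carrier transcobalamin, which is taken up by the receptor CD320 and degraded in the lysosome. The freed vitamin crosses the lysosomal membrane with the help of LMBRD1 and the ABC transporter ABCD4, and is then processed in the cytosol by MMACHC and MMADHC. It serves as cofactor of only a pair of human enzymes, methionine synthase (MTR) in the cytosol, kept active by its reductase MTRR, and methylmalonyl-CoA mutase (MUT) in mitochondria, supplied by MMAB and MMAA. Inherited defects of these genes cause methylmalonic aciduria, homocystinuria or both.

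The start regions of 3 of the genes are shown because they belong to the gene that changed, to its lysosomal partner, and to a gene whose start region is shared with a neighbour. Each is the RefSeq window of 250 bases before to 50 after an annotated start, on GRCh38.p14, which is not the build of the counts. The windows are LMBRD1 at chr6:69796560-69796859, ABCD4 at chr14:74302885-74303184 and MMAB at chr12:109573455-109573754, all on the minus strand and written 5′ to 3′. The LMBRD1 window belongs to a start inside the gene. Matched to GRCh37, it begins 22 bases downstream of the first base of the most upstream start codon that GENCODE gives protein-coding transcripts of LMBRD1, its first 47 bases are coding, and the sequence before that start codon is not in it. Capitals mark the CRE half-site TGACGT and the CCAAT box, on either strand.
LMBRD1: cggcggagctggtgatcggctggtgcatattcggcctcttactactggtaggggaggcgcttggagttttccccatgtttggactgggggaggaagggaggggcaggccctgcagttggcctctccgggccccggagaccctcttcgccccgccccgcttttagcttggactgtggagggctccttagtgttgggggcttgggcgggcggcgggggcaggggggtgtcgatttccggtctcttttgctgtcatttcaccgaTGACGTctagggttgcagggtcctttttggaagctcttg
ABCD4: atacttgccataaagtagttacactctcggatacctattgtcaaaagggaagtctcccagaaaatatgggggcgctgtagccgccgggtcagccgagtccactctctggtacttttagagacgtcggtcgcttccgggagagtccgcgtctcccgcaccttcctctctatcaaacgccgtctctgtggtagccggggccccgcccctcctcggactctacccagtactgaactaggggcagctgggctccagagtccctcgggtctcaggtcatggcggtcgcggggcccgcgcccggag
MMAB: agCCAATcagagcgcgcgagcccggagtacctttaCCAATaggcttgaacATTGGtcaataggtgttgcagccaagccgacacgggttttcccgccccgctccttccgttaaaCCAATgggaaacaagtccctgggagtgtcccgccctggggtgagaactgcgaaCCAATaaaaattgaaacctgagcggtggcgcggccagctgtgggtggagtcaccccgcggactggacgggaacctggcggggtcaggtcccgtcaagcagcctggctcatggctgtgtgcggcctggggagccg

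The LMBRD1 window, the first of 2 listed for the gene, held 1 match to TGACGT, which occurs in 8.32% of the 27305 windows (1 per gene, both strands searched). In LMBRD1 the match lies within the 50 bases after the annotated start, not in the 250 before it. Windows were found for 9 of the 10 genes, and only those of LMBRD1 and MUT held these letters. CCAAT occurs in 35.7% of all windows and in those of MMACHC, MMADHC, MTR, MMAB and MUT, with 5 matches in that of MMAB. The GC box GGGCGG, left in lower case, occurs in 44.6% of all windows and in 7 of the 9. The E-box CACGTG, present in 7.43% of all windows, was in none of the 9. The MMAB window shares 211 bases with that of MVK, mevalonate kinase, which is read in the opposite direction. Such matches are letters in a window, and binding was not measured.

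The libraries held between 28218471 and 37473413 counts, and all 4 lenalidomide libraries were smaller than all 4 DMSO libraries. Lenalidomide replicate 4 had the fewest counts but the most genes with counts, 19568 against 16953 to 18476 in the others. Counts were scaled to counts per 1000000 (CPM) by library total and TMM factor, a correction for differences in composition. Of the colon epithelial markers, EPCAM, CDH1, KRT8, KRT18, KRT19 and CDX2 passed the filter on low counts, whereas VIL1, the microvillus protein villin, had at most 2 counts in any library. Summed over these 7 markers the level was 2295 to 2596 CPM with DMSO and 2220.5 to 2553 CPM with lenalidomide. The 6 markers of other cell types (PTPRC, CD3E, PECAM1, COL1A1, ALB and HBB) summed to 2.78 to 3.48 CPM with DMSO and 2.77 to 4.02 CPM with lenalidomide. Most of this was the collagen gene COL1A1. CD3E and HBB had 0 counts in every DMSO library and at most 2 in any lenalidomide library. The leucocyte marker PTPRC had 0 to 2 counts with DMSO and 3 to 6 with lenalidomide, too few for a test, and its part in the results was not tested.

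Levels between genes were compared per length, as RPKM, the CPM divided by the deposited exonic width in kilobases. In the DMSO libraries MMADHC, the cytosolic protein that directs cobalamin to its enzymes, stood highest, with 132.7 ± 10.6 RPKM (SD, n = 4), above 96.9% of the 13925 genes tested. The reductase MTRR followed with 17.5 ± 0.234 RPKM and MTR with 12.9 ± 1.23 RPKM. The lowest was MMAA, a mitochondrial GTPase that assists the loading of the mutase, with 1.02 ± 0.101 RPKM, so that the 10 genes spanned 130.5-fold.

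The genes in between lay close to the median of all genes tested, 6.36 RPKM. ABCD4 (8.44 ± 0.646 RPKM), CD320 (8.35 ± 0.818 RPKM), MUT (7.20 ± 0.441 RPKM) and MMACHC (7.11 ± 0.381 RPKM) formed a run in which each gene overlapped the next over the 4 DMSO libraries. MMAB (4.89 ± 0.444 RPKM) overlapped LMBRD1 (4.23 ± 0.483 RPKM) in the same way. The other neighbours in this order, MMADHC and MTRR, MTRR and MTR, MTR and ABCD4, MMACHC and MMAB, and LMBRD1 and MMAA, had ranges that did not overlap. LMBRD1 was thus among the 3 lowest of the 10 in each DMSO library, in place 8 or 9. In the lenalidomide libraries LMBRD1 had 7.26 ± 0.432 RPKM and stood in place 6 or 7. These levels and places rest on the deposited width of LMBRD1, 2725 exonic bases, where GENCODE has 4904.

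**Figure D1:**
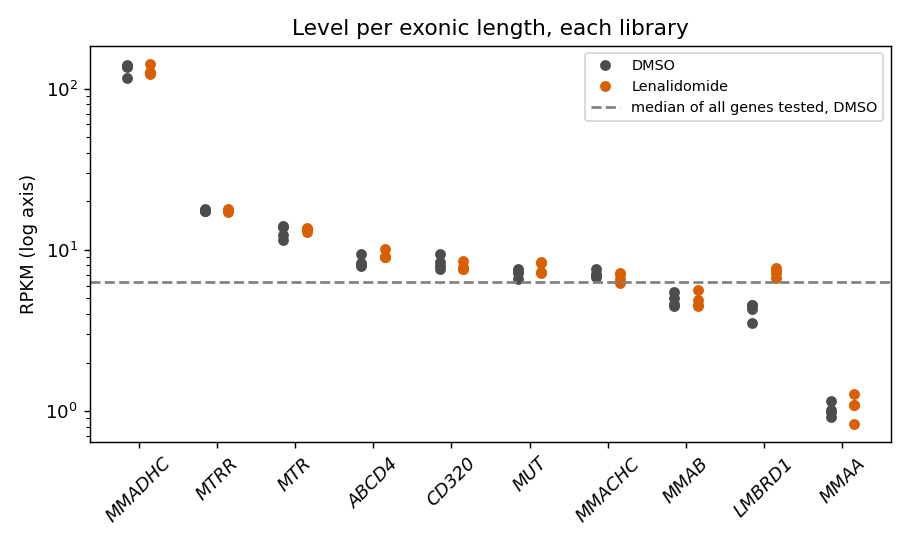
RPKM (log axis) of the 10 cobalamin genes in the 4 DMSO (grey) and 4 lenalidomide (orange) libraries, in the order of the DMSO means, with the median of all genes tested as a dashed line at 6.36 RPKM. MMADHC stands far above the others and MMAA far below. At the deposited exonic widths LMBRD1 lies under the line with DMSO and above it with lenalidomide.

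LMBRD1 encodes a lysosomal membrane protein needed for the release of cobalamin into the cytosol. The gene (Entrez gene 55788) covers chromosome 6 from 70382649 to 70577128 of GRCh37, minus strand, in the GENCODE annotation. It had 464, 448, 329 and 444 counts in DMSO replicates 1 to 4, and 604, 667, 695 and 528 counts in lenalidomide replicates 1 to 4. The counts were thus higher with lenalidomide even before scaling, although those libraries were smaller. Scaled, this was 12.4, 12.4, 9.61 and 11.7 CPM with DMSO and 19.6, 20.1, 21.1 and 18.3 CPM with lenalidomide. The groups did not overlap, and DMSO replicate 3 was the lowest of all libraries. The fitted log2 fold change was 0.78 (standard error 0.086), a 1.72-fold difference with a 95% confidence interval from 1.51 to 1.95. As LMBRD1 was picked for this same difference, the fitted value may be too high. The interval does not allow for the picking and is not read as a test. Without DMSO replicate 3 the log2 fold change was 0.70.

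**Figure D2:**
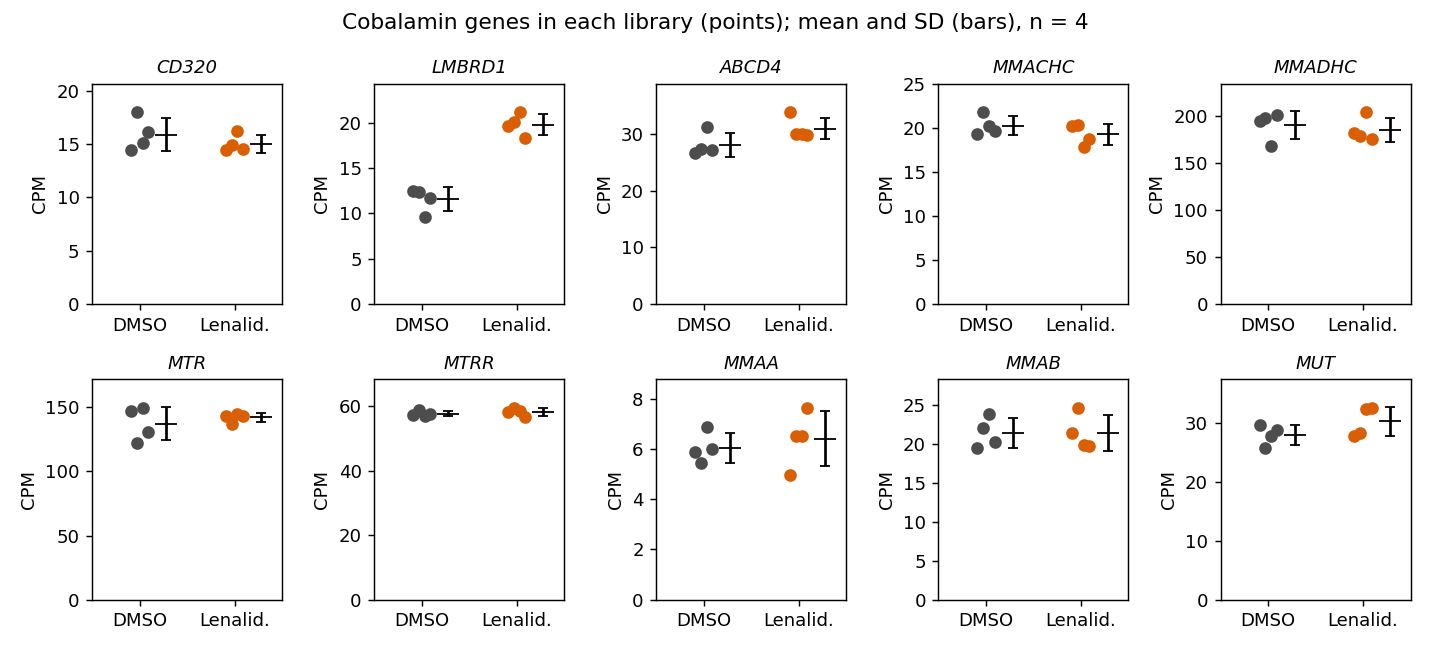
CPM of each of the 10 genes in the 4 DMSO and 4 lenalidomide libraries (points), each panel with its own axis from 0 and with the mean and SD of each group beside the points. The groups are apart for LMBRD1, at 9.61 to 12.4 and 18.3 to 21.1 CPM, and overlap for the other 9 genes.

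In edgeR's quasi-likelihood fit, with p-values adjusted by the Benjamini-Hochberg method over all 13925 genes, 1 of the 10 passed the threshold of 0.05, and it was higher with lenalidomide. Of all genes tested 0.0144% were called, all of them higher. This was LMBRD1, whose choice used the same comparison, so nothing is read from that count. Groups that did not overlap were found for 2.08% of all genes tested (1.24% higher and 0.84% lower) and for 1 of the 10, again LMBRD1. Among the other 9 genes 0 had an adjusted p under 0.05, and 0 had an unadjusted p under 0.05, with 0.0583 as the lowest, where 4.18% of all genes tested did (3.26% higher and 0.919% lower). DESeq2 and edgeR's likelihood ratio test also called 0 of the 9, each with 0 at an unadjusted p under 0.05. Their adjusted p was 0.999 for each gene in the quasi-likelihood test. Their log2 fold changes ran from -0.080 to 0.14, with a median of 0.013, against a median of 0.0025 over all genes tested. In 6 of the 9 the fitted value was above 0, where 51.3% of all genes tested were above 0. All 9 confidence intervals held 0, and together they reached from 0.840-fold to 1.27-fold.

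**Figure D3:**
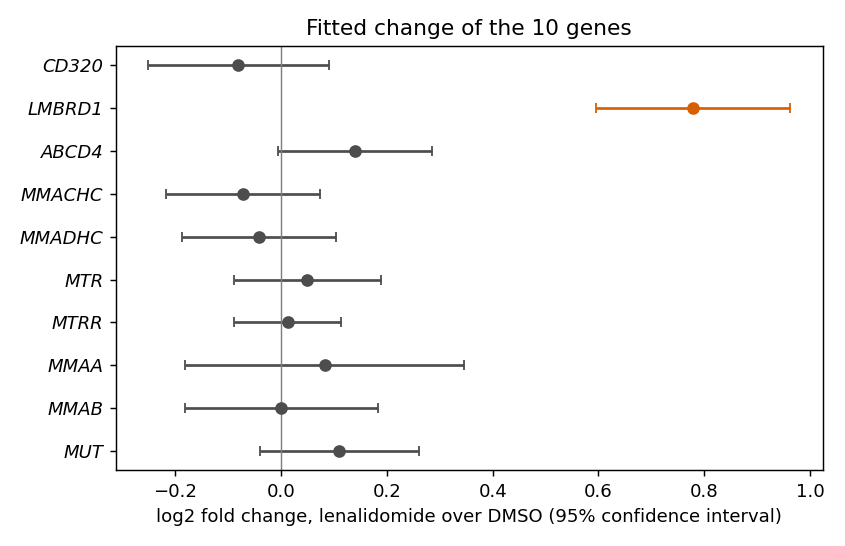
Log2 fold change of lenalidomide over DMSO with its 95% confidence interval for the 10 genes, ordered from uptake to mitochondrial use. LMBRD1 (orange) is at 0.78 and the other 9 (grey) lie between -0.080 and 0.14, with intervals that all include 0. The interval of LMBRD1 does not allow for its choice from this comparison.

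ABCD4, the ABC transporter that acts with LMBRD1 at the lysosome, was the nearest of the 9 to a difference. The gene lies on chromosome 14 from 74751972 to 74769758 of GRCh37. It had 26.6, 27.4, 31.3 and 27.1 CPM in DMSO replicates 1 to 4, and 33.8, 30.04, 30.04 and 29.8 CPM in lenalidomide replicates 1 to 4. DMSO replicate 3, the library with the lowest LMBRD1, had the highest ABCD4 of its group and reached into the lenalidomide range. Lenalidomide differed from DMSO by 0.14 on the log2 scale (standard error 0.068, 95% confidence interval -0.0057 to 0.29). Without DMSO replicate 3 this was 0.19, with an unadjusted p under 0.05 and an adjusted p of 0.819 in the edgeR fit. This was the highest of the 8 fits that left out a library. The lowest was 0.094, without lenalidomide replicate 1, the library with the most ABCD4. In the other fits that left out a library, 0 of the 9 genes had an unadjusted p under 0.05. The share of all genes with such a p without DMSO replicate 3 was not taken. Within each library the ratio of LMBRD1 to ABCD4 on the RPKM scale was 0.571, 0.551, 0.376 and 0.528 with DMSO and 0.708, 0.818, 0.859 and 0.749 with lenalidomide. ABCD4 was thus the more abundant of the pair in all 8 libraries, and the ratio did not overlap between treatments, as follows from the values of LMBRD1.

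CD320, the cell surface receptor for transcobalamin-bound cobalamin, lies on chromosome 19 from 8367011 to 8373242. It was measured at 14.4, 18.0, 15.05 and 16.1 CPM with DMSO and at 14.4, 14.9, 16.2 and 14.5 CPM with lenalidomide. DMSO replicate 2 was the highest library, and the others lay within the same range in both treatments. On the log2 scale the difference was -0.080 (95% confidence interval -0.25 to 0.090). In GENCODE 76 exonic bases of CD320, 6.07% of its exons, are shared with another protein-coding gene on the same strand. The counts used another annotation, with 1900 exonic bases for CD320, so the share of its counts affected is not known.

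The cytosolic processing genes were on very different levels and overlapped between treatments. MMACHC, which strips the upper ligand from incoming cobalamin, lies on chromosome 1 from 45965972 to 45979054. It had 19.4, 21.8, 20.2 and 19.7 CPM with DMSO and 20.2, 20.4, 17.8 and 18.8 CPM with lenalidomide. The lowest values were those of lenalidomide replicates 3 and 4, and the other libraries were mixed (log2 fold change -0.071, 95% confidence interval -0.22 to 0.074). MMADHC, on chromosome 2 from 150426151 to 150444292, had 195.2, 197.9, 168.2 and 201.6 CPM with DMSO and 182.0, 178.9, 204.3 and 176.1 CPM with lenalidomide. DMSO replicate 3 was the lowest and lenalidomide replicate 3 the highest, so that the group ranges overlapped (log2 fold change -0.041, 95% confidence interval -0.19 to 0.10).

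In GENCODE, 501 exonic bases of MMACHC, 9.92% of its exons, lie opposite those of PRDX1, a peroxidase with 1159 ± 41.0 CPM with DMSO (SD, n = 4). No strand setting is named for the counting. If these bases were counted for MMACHC, reads of the far more abundant PRDX1 cannot be told apart from its own there. For MMADHC, 522 exonic bases or 26.8% lie opposite the antisense gene MMADHC-DT, which was not analysed here. As the counts used another annotation, with 2850 exonic bases for MMACHC and 1437 for MMADHC, the share of their counts affected, if any, is not known. PRDX1 itself had a log2 fold change of -0.016 (95% confidence interval -0.16 to 0.13). The ratio of MMADHC to MMACHC per length was 18.7 ± 1.81 with DMSO and 19.2 ± 2.44 with lenalidomide (SD, n = 4 each), a difference within the spread (two-sided exact permutation test, p = 0.857).

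Methionine synthase and its reductase were both well covered. MTR, which transfers a methyl group from folate to homocysteine, lies on chromosome 1 from 236958560 to 237084578. It had 146.8, 122.0, 149.4 and 131.1 CPM with DMSO and 143.3, 136.9, 145.2 and 143.4 CPM with lenalidomide. All lenalidomide values fell inside the DMSO range, which was wide, with a coefficient of variation of 9.51% against 2.57% with lenalidomide. Counting error alone would give 1.41% with DMSO. The log2 fold change of MTR was 0.050 (95% confidence interval -0.089 to 0.19).

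MTRR, the flavoprotein that reactivates oxidized MTR, lies on chromosome 5 from 7851299 to 7906138 and was the steadiest of the 10 genes. It had 57.3, 58.8, 57.1 and 57.6 CPM with DMSO and 58.1, 59.5, 58.5 and 56.7 CPM with lenalidomide. The groups overlapped almost completely, and the coefficient of variation with DMSO, 1.34%, was below the counting error of 2.18%. Its log2 fold change was 0.013, with the narrowest interval of the 10, from -0.088 to 0.11.

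The mitochondrial branch showed no difference between treatments that exceeded its spread. MUT, the mutase that turns methylmalonyl-CoA into succinyl-CoA, lies on chromosome 6 from 49398073 to 49430966, far from LMBRD1 on the same chromosome. It had 29.6, 25.7, 27.8 and 28.8 CPM with DMSO and 27.8, 28.3, 32.3 and 32.5 CPM with lenalidomide. Lenalidomide replicates 3 and 4 were above every DMSO library and replicates 1 and 2 within the DMSO range (log2 fold change 0.11, 95% confidence interval -0.040 to 0.26).

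MMAB, which makes the adenosyl form of the cofactor, lies on chromosome 12 from 109991520 to 110011385. It had 19.6, 22.1, 23.9 and 20.2 CPM with DMSO and 21.4, 24.6, 19.9 and 19.7 CPM with lenalidomide. The libraries of both treatments were interleaved, and the log2 fold change of 0.00092 (95% confidence interval -0.18 to 0.18) changed its sign between scalings. MVK, whose start region is the one shared with MMAB and whose exons share 225 bases with it in GENCODE, had a log2 fold change of -0.034 (95% confidence interval -0.20 to 0.13).

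MMAA lies on chromosome 4 from 146520194 to 146581185 and was the least covered gene, with 153 to 235 counts per library. It had 5.89, 5.44, 6.87 and 5.99 CPM with DMSO and 4.96, 6.51, 6.51 and 7.63 CPM with lenalidomide. Lenalidomide replicate 1 was the lowest library and replicate 4 the highest, so that the spread within this group exceeded the difference between groups. The fitted log2 fold change was 0.082 with the widest interval of the 10, from -0.18 to 0.35.

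Relative levels of these genes were also compared within libraries. On the RPKM scale MTR stood at 0.740 ± 0.0789 of MTRR with DMSO and at 0.759 ± 0.0307 with lenalidomide. MTR exceeded MUT 1.80 ± 0.128 times with DMSO and 1.73 ± 0.123 times with lenalidomide, and MUT exceeded MMAA 7.12 ± 0.645 and 7.33 ± 0.961 times (SD, n = 4 in each group). Of the 5 such ratios tested, which did not involve LMBRD1, 0 were called, and the ranges of all 5 overlapped between treatments. The lowest unadjusted p in the two-sided exact permutation test was 0.486, and the adjusted values were all 0.857. Before adjustment, 4 libraries against 4 can reach 0.0286. After adjustment over the 5 ratios, a single ratio at that lowest value would not have passed the threshold. The adjusted test could thus not have called a change confined to a single ratio, and nothing is concluded from its 0 calls.

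Beyond the 10 genes, the other carriers and receptors of cobalamin were mostly at or below about 1 CPM. Of 7 genes for cobalamin carriers and other uptake or export proteins, TCN1, TCN2, CUBN and ABCC1 were tested and GIF, AMN and LRP2 had too few counts. ABCC1, an exporter with many substrates, was the exception with 90.4 CPM on average with DMSO. An adjusted p under 0.05 was reached by 0 of the 4 in either direction. An unadjusted p under 0.05 was reached by 1, CUBN, against 4.18% of all genes tested. CUBN encodes cubilin, the intestinal receptor for cobalamin bound to intrinsic factor. It had 31, 26, 28 and 27 counts with DMSO and 28, 36, 28 and 50 with lenalidomide, or 0.713 to 0.830 CPM and 0.851 to 1.73 CPM. The scaled groups did not overlap, as for 1.24% of all genes tested in this direction, but lenalidomide replicate 4 was far above the rest. That library also had the most genes with counts, and its part in the CUBN value was not tested. On the log2 scale CUBN was higher by 0.56 (standard error 0.24), with an adjusted p of 0.999 in the edgeR fit, and by 0.30 without that library. TCN1, a cobalamin carrier of secretions, had the lowest log2 fold change of the list, -0.32 (95% confidence interval -0.70 to 0.058), averaging 1.25 ± 0.0792 CPM in the DMSO libraries and 0.996 ± 0.155 CPM in those with the drug (SD, n = 4). The list had a median log2 fold change of 0.13 over its 4 tested genes.

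The metabolic surroundings of the cobalamin enzymes gave 0 calls in either direction. Of 18 genes of the methionine and folate cycle 15 were tested, with a median log2 fold change of -0.0058. At an unadjusted p under 0.05 there was 1 gene, against 4.18% of all genes tested. That gene, TYMS (thymidylate synthase), was the highest of the list at 0.14 (95% confidence interval 0.0024 to 0.27). CBS, BHMT and BHMT2, other routes that consume homocysteine, had too few counts. All 9 genes from propionate to succinyl-CoA were tested, with a median of 0.024 and values between -0.13 for SUCLG1 and 0.13 for ALDH6A1, and 0 had an unadjusted p under 0.05. Of the 3 genes HCFC1, ZNF143 and THAP11, whose products act on MMACHC transcription, log2 fold changes ran from -0.042 for THAP11 to 0.021 for HCFC1, with a median of -0.011 and likewise 0 at an unadjusted p under 0.05.

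Relatives of LMBRD1 and ABCD4 and other transporters of the lysosomal membrane were examined beside them. LMBR1, LMBR1L and LMBRD2 had log2 fold changes of 0.035, 0.20 and -0.034, and ABCD3, a peroxisomal relative of ABCD4, of -0.040, whereas ABCD2 had too few counts. The highest, LMBR1L, averaged 4.47 ± 0.264 CPM in the DMSO libraries and 5.14 ± 0.507 CPM in those with the drug (SD, n = 4), and the groups overlapped. Of these 4 tested genes 0 had an adjusted p and 0 an unadjusted p under 0.05 in the edgeR fit. All 14 other lysosomal membrane transporters were tested, with a median of 0.020 and values from -0.089 for PQLC2, an exporter of cationic amino acids, to 0.18 for SPNS1. The groups did not overlap for 1 of the 14, SPNS1, against 1.24% of all genes tested in this direction. They were barely apart, with at most 8.561 CPM with DMSO and at least 8.563 CPM with lenalidomide. An adjusted p under 0.05 was found for 0 of the 14. An unadjusted p under 0.05 was found for 1, NPC1, the cholesterol exporter, against 4.18% of all genes tested.

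**Figure D4:**
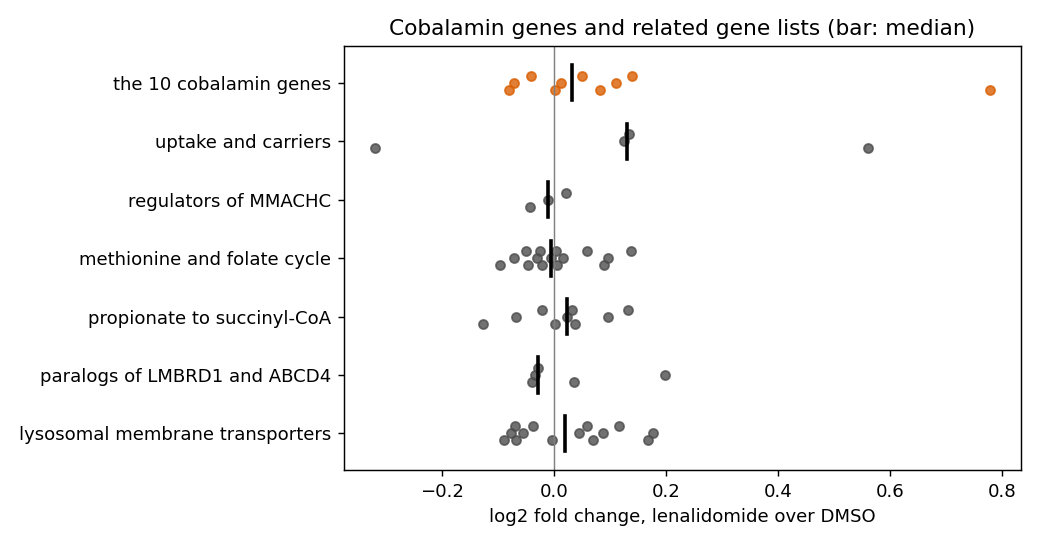
Log2 fold change of lenalidomide over DMSO for the tested genes of the 10 cobalamin genes (orange) and of 6 related lists (grey), 1 point per gene, with the median of each list as a bar. LMBRD1 at 0.78 and CUBN at 0.56 lie to the right of all other genes shown.

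The genomic surroundings of LMBRD1 were then examined. Of the 5 genes in the table that start within 1 Mb of it in GENCODE, COL19A1 and COL9A1 had too few counts to be tested. COL19A1 lies on the opposite strand and in GENCODE shares 85 bases, 1.73% of the annotated exonic sequence of LMBRD1. Whether the 2725 exonic bases counted for LMBRD1 include them is not known. COL19A1 had between 1 and 9 counts in each library, against at least 329 for LMBRD1 in its lowest library. The 3 tested genes lay on one side, with log2 fold changes of 0.0089 for FAM135A, -0.030 for SDHAF4, an assembly factor of succinate dehydrogenase, and 0.18 for SMAP1. For all 3 the edgeR fit gave an adjusted p of 0.999, and the intervals held 0.

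The genes whose level followed that of LMBRD1 most closely over the 8 libraries were CA2, NRIP1, PITPNA, ZHX1 and GALK2, by Pearson correlation of log2 CPM among 9093 other genes with at least 10 CPM. Their coefficients were 0.97 for CA2, 0.94 for NRIP1, PITPNA, ZHX1 and GALK2. The 8 libraries share the treatment, so that a gene whose rise with lenalidomide is large against its own spread tends to score well. Once the mean of each treatment had been removed, the coefficient was 0.87 for CA2 and GALK2 and was 0.43 for NRIP1, 0.35 for PITPNA and 0.28 for ZHX1. CA2, carbonic anhydrase 2, averaged 17.5 ± 1.60 CPM in the DMSO libraries and 22.4 ± 0.906 CPM in those with the drug. GALK2, a sugar kinase, averaged 26.2 ± 0.428 and 27.2 ± 0.325 CPM in the same order (SD, n = 4 each). The groups of all 5 genes did not overlap. As the 5 were picked as the highest of 9093 coefficients over the same libraries, both this and a high coefficient within treatments follow in part from the picking. None of the other 9 cobalamin genes was among them, with coefficients between -0.44 and 0.48 over the same 8 libraries.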

How the data were processed

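The authors sequenced ScriptSeq v2 total RNA libraries, processed with bcl2fastq 2.17 according to the submitters, aligned reads to hg19 with QuasR at default settings and spliced alignment, and deposited raw read counts per UCSC known gene with exonic widths. No strand setting is named. Among the 23459 genes, 70 without a symbol held 0.0223% of the counts.

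The fit used edgeR 4.0.16 (limma 3.58.1) under R 4.3.3. filterByExpr (minimum count 10, minimum total 15) kept 13925 genes, including all 10 members. After TMM scaling of the totals over these genes, glmQLFit and glmQLFTest compared lenalidomide with DMSO across the whole table, with Benjamini-Hochberg adjustment and a threshold of 0.05. Standard errors and 95% intervals were derived from each log2 fold change and its quasi-likelihood F value. The fit was tested on simulated data.  Ratios between members were compared by a two-sided exact permutation test over libraries.

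The members and lists were chosen with earlier results of these data known. Genes named were the members, genes whose exons overlap theirs, tested paralogs, tested genes within 1 Mb of LMBRD1, the 5 genes most correlated with it, and in each list the called genes or otherwise the highest and lowest, although some genes that this rule names are not reported here. NPC1, COL19A1, the genes with too few counts and the genes listed beside a count were named beyond this rule after their values were seen. Positions are from GENCODE on GRCh37, and 22209 of 23459 genes matched by current symbol. Alternatives were RLE scaling, DESeq2 1.42.0, the likelihood ratio test, 2 filters, the replicate number as a block, leaving out each library, and, for levels, TPM and unscaled totals.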

Additional observations from a re-analysis of the deposited data

Results flagged for a closer look

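Of 20 groups of 4 CPM values (10 genes in each of 2 treatments), 1 had a highest or lowest library set apart by a wide gap, and about 1 such group is expected by chance. The gene was ABCD4, with 33.79 CPM in lenalidomide replicate 1 and between 29.85 and 30.04 CPM in the remaining libraries of that treatment.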

How the results depend on the processing

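The 9 genes other than LMBRD1 gave 0 calls under each of the 14 alternatives, and the lowest adjusted p among them was 0.699, by edgeR's quasi-likelihood test without lenalidomide replicate 2 (range of lowest values over the alternatives 0.699 to 0.9999). Their median log2 fold change ran from 0.0019 to 0.053 with each library left out. The log2 fold change of LMBRD1 ran from 0.70, without DMSO replicate 3, to 0.81 in those fits. Over all genes, 2 of 13925 were called. DESeq2 called 9, edgeR's likelihood ratio test 12, a fit that kept all genes with any count 4, and the fit with a replicate block 6, and leaving out single libraries gave 1 to 2. The cause was not tested beyond the smaller number of samples in the last. The replicate block changed no call among the 9 genes other than LMBRD1. Deviations of same-numbered libraries correlated at 0.028, -0.024, 0.031 and 0.27 for numbers 1 to 4, against -0.29 to 0.17 for different numbers. Number 4 thus lay above that range and the other numbers within it. The numbers were not taken as pairs in the main fit.

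MMAB changed sign with RLE scaling (-0.0031), DESeq2 (-0.0034), all genes with any count kept (-0.0070) and the replicate block (-0.0014). With each library left out, log2 fold changes crossed 0 for MMAB (-0.074 to 0.053), MMAA (-0.0091 to 0.19), MTR (-0.0029 to 0.089), MVK (-0.076 to 0.0055), PRDX1 (-0.073 to 0.022), LMBR1 (-0.00047 to 0.056), LMBRD2 (-0.15 to 0.057), FAM135A (-0.036 to 0.043), SDHAF4 (-0.21 to 0.13), SMAP1 (-0.023 to 0.27) and HCFC1 (-0.036 to 0.092). Of 140 alternative values for the 10 genes, 9 changed sign. CUBN fell from 0.56 to 0.30 without lenalidomide replicate 4. CA2 and NRIP1 were past the threshold with DESeq2 and the likelihood ratio test only, and ZHX1 was past it in 1 of the 8 fits that left out a library. The order of the 10 levels was the same with TPM and without TMM factors. Both rescale each library as a whole and keep the deposited exonic widths, so they could not reorder genes within a library. Other widths were not tried, and they differ by annotation. LMBRD1 has 2725 deposited exonic bases and 4904 in GENCODE, and MMACHC has 2850 and 5049. The place of LMBRD1 among the 10 and its side of the median are thus given for the deposited widths only. With each DMSO library left out, 6 (without DMSO replicate 1) to 10 of the 10 places were kept.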
